A study of Caenorhabditis elegans with 2 samples.

Results

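Small nuclear RNA (snRNA) genes make the short, non-coding RNAs of the splicing machinery. The members described here are all 129 nuclear genes of biotype snRNA in the Ensembl annotation of the WBcel235 assembly of Caenorhabditis elegans, which is the ce11 build, out of 46890 nuclear genes. For each gene, chromatin immunoprecipitation (ChIP) peak entries whose summit lay inside the gene or within 250 bp of it were taken from 4 ce11 lists. The rule for membership uses the annotation alone and no measured value.

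The immunoprecipitated protein was DAF-16, the forkhead (FOXO) transcription factor that acts downstream of insulin-like signalling in the worm, and it was recovered through a green fluorescent protein (GFP) tag. Both libraries came from strain ZM8745, whose animals carry the deletion mu86 in daf-16, the allele e1370 of daf-2 (the insulin-like receptor gene, on chromosome III) and the transgene hpSi15, Pges-1 GFP::daf-16a. The ges-1 promoter drives expression in the intestine, so the tagged protein is made there, while whole hermaphrodites at the L4 larval stage were collected 54 hours after the synchronization of starved first-stage larvae. The labels place the tag at different ends of the protein in different fields. The labels give 2 biological replicates and 1 group, which leaves no treatment, genotype or time to compare, and an untagged or input library was not analysed here.

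In background, the U1, U2, U4, U5 and U6 RNAs form the core of the spliceosome, which removes introns from messenger RNA precursors. U6 is made by RNA polymerase III and the others by RNA polymerase II, but the promoters of both kinds share a proximal sequence element bound by the SNAPc complex. Nematodes have further small nuclear RNAs for trans-splicing: the spliced leader RNAs SL1 and SL2, which donate their first bases to other messages, and the SmY RNAs. SL2 is used mainly for downstream genes of operons.

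The deposited lists held 1489 optimal entries, 30000 pooled entries, 28175 entries of replicate 1 and 22676 of replicate 2. The optimal list, thresholded by the irreproducible discovery rate (a measure of how alike entries rank in replicates), was made of the 1489 entries with the highest signal in the pooled list. The signal of an entry is the authors' value on a scale that is not stated, so entries were ranked by it within each list, with rank 1 the highest, and no sequencing depth is known. For each member the highest entry within 250 bp was taken in each list separately. Replicate ranks given beside an optimal rank can thus belong to entries with another summit.

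The annotation gave none of the members a U class. The first 3 families were set by gene symbol: 12 SL1 RNA genes (sls-1), 18 SL2 RNA genes (sls-2) and 10 SmY RNA genes (smy). The other genes were grouped by shared 8-base words, which gave 5 groups of at least 5 genes, each called here by its highest-ranking gene, and left 14 members in no group. The W05B2.8 group had 24 genes with a median length of 102 bp, and 22 of them contained ACAGAGA, the letters by which U6 RNA pairs with the 5′ splice site. The sup-6 group had 14 genes with a median length of 165 bp, and 12 of them contained ACTTACCTG, the letters with which U1 RNA pairs with the 5′ splice site. In worm genetics sup-6 and sup-39 are known as U1 RNA genes that can mutate to suppressors of splice-site mutations. The F11A5.14 group had 20 genes with a median length of 187 bp, and 19 contained GTAGTA, the letters of U2 RNA that pair with the branch point. The F38E11.10 group had 12 genes with a median length of 122 bp, and 11 contained GCCTTTTAC, the loop letters of U5 RNA. The C52E4.8 group had 5 genes with a median length of 144 bp. None of these 4 words was found in a member outside its group. These letters describe the genes and do not assign a class to them.

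The bases just upstream of the genes are shown because the groups share an element there. Each run is the 75 bases that end at the base before the annotated gene start, read 5′ to 3′ on the gene's strand from the RefSeq WBcel235 sequence. Capitals mark the 7 positions of an element made of CCC and, 6 bases further on, TGTC, where at most 1 letter differs, and the word TATATAA. W05B2.8, F54D8.7 and R07E5.16 belong to the W05B2.8 group and M163.13 to no group. The runs of sup-6 and F08H9.11, of C52E4.8 and of F11A5.14 stand for other groups, sls-2.1 and sls-2.16 for SL2 and smy-1 for SmY. F38E11.10, ZK1251.14 and F36A4.23 are shown as members without the element. The first 2 have an optimal entry and F36A4.23 has none, and F38E11.10 is the exception in a group in which 11 of 12 genes have the element.
W05B2.8 (chrIII:10989604-10989678, plus strand): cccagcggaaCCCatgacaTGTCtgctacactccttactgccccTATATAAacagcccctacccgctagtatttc
F54D8.7 (chrIII:5080899-5080973, minus strand): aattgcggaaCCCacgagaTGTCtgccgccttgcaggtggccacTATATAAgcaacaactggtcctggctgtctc
R07E5.16 (chrIII:4414110-4414184, plus strand): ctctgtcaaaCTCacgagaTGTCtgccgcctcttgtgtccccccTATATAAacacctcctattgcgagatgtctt
M163.13 (chrX:14476792-14476866, plus strand): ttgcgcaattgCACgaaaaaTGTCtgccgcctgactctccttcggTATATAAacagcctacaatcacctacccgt
sup-6 (chrII:12944968-12945042, minus strand): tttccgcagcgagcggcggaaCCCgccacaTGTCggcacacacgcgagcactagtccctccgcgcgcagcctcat
F08H9.11 (chrV:14468734-14468808, minus strand): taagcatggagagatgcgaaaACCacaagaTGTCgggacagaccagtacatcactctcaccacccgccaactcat
C52E4.8 (chrV:11980043-11980117, plus strand): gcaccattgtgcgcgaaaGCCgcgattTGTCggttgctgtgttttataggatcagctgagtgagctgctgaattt
F11A5.14 (chrV:16225888-16225962, minus strand): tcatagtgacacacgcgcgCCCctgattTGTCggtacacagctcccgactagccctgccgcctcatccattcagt
F38E11.10 (chrIV:9444567-9444641, plus strand): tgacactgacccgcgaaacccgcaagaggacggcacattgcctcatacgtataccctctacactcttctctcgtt
sls-2.1 (chrII:5844790-5844864, plus strand): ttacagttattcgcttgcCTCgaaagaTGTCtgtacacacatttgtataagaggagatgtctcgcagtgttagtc
sls-2.16 (chrIII:7141316-7141390, plus strand): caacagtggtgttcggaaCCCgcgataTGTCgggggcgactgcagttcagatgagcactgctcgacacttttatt
smy-1 (chrIV:9511840-9511914, minus strand): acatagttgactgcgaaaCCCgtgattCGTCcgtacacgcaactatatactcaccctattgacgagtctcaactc
ZK1251.14 (chrIV:9682804-9682878, plus strand): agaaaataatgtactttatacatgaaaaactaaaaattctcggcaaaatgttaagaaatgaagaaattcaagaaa
F36A4.23 (chrIV:4239685-4239759, plus strand): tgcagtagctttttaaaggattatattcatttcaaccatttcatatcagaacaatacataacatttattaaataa

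With 1 letter allowed to differ the element was found at most members. It was rare over all nuclear genes, which include the members. CCC followed 6 bases later by TGTC, in the direction of the gene, occurred within 100 bp upstream of 55 of the 129 members (42.6%), of 231 of the 46890 nuclear genes (0.493%) and of 27 of 346 small nucleolar RNA (snoRNA) genes (7.8%). With 1 of the 7 letters allowed to differ and the first C placed from 70 to 50 bp before the gene, it occurred at 100 members (77.5%) and at 906 nuclear genes (1.93%). The element was written down from the members themselves, so these shares describe them and test nothing. CGGAACCC was the 8-base word upstream of the most members, 31 of 129 (24.0%) against 0.143% of all nuclear genes. A match is a description of the letters and not a site of the SNAPc complex.

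The distance of the element from the gene, with at most 1 letter differing and searched for from 70 to 50 bp before it, differed between groups. It began 64 or 65 bp before the gene at all 17 genes of the W05B2.8 group that had it, and 64 bp before M163.13. It started 51 to 58 bp before the gene in the SL1, SL2, SmY, F11A5.14, F38E11.10 and C52E4.8 genes that had it. At smy-8 the exact letters also stood outside the searched stretch, 25 bp before the gene. In the sup-6 group 13 of 14 genes had it, F40G12.13 being the one without, and it began 53 or 54 bp before the gene except at mir-1831 (60 bp) and T27E4.22 (69 bp). TATATAA stood upstream of 15 of the 24 genes of the W05B2.8 group, always 30 or 31 bp before the gene, and 30 bp before M163.13. Within 100 bp upstream, TATATAA was present at 18 members (14.0%) and at 2.43% of all nuclear genes. A TATA box after the proximal element is known, as background, from U6 genes of other animals.

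**Figure D1:**
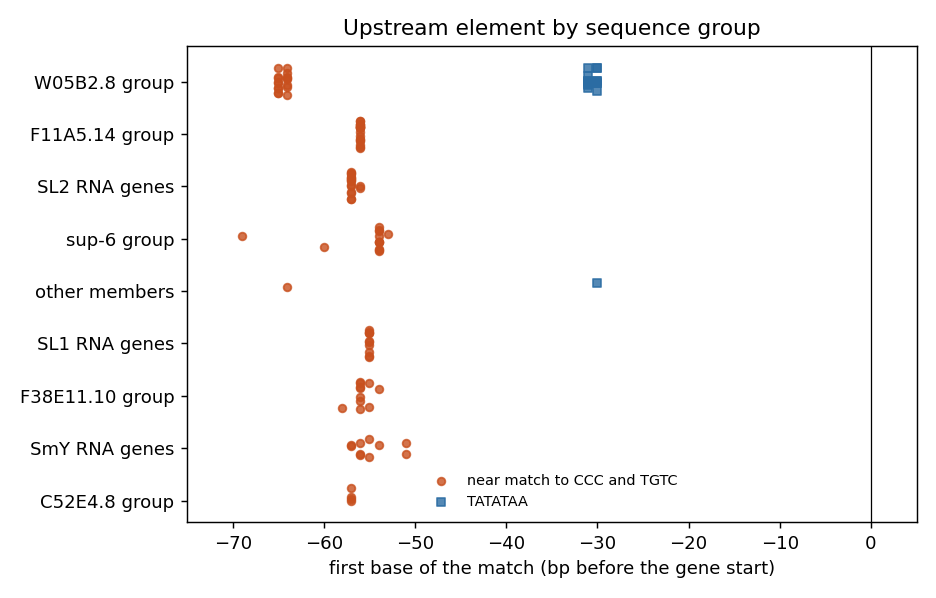
Position of the upstream element (circles, first base of a match with at most 1 of 7 letters differing) and of TATATAA (squares) before each snRNA gene, in bp, by sequence group; each mark is 1 gene and the spread within a row is only for legibility. The circles of the W05B2.8 group sit at 64 and 65 bp with squares at 30 and 31 bp, and those of the other families sit mostly at 51 to 58 bp with no square (squares are drawn from 45 to 15 bp). Among the ungrouped members, M163.13 has a circle at 64 bp and a square at 30 bp.

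An optimal entry lay at 27 of the 129 snRNA genes, 20.9% with an exact (Clopper-Pearson) 95% interval of 14.3% to 29.0%, against 4.2% of all nuclear genes and 6.14% of those other than piRNA genes. The interval covers the counting of genes only. The share was 22.8% for snoRNA genes (79 of 346), 62.9% for transfer RNA (tRNA) genes (385 of 612) and 4.65% for protein-coding genes (929 of 19973). Each replicate by itself gave a like share: among its 1489 highest-signal entries replicate 1 had one at 26 members (20.2%, against 4.18% of all nuclear genes) and replicate 2 at 24 members (18.6%, against 4.16%). The pooled list, which also holds background, had an entry at 73 members (56.6%, against 35.5% of all nuclear genes, 46.4% of those other than piRNA genes and 55.8% of protein-coding genes), so its share was near that of protein-coding genes, and 52 members had no entry in any of the 4 lists.

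Not every such entry belongs to an snRNA gene alone. The 27 members had 33 distinct intervals, 29 of them 420 bp wide. For 22 of the 27, every summit was also within 250 bp of a protein-coding gene, and 17 had a summit inside one. Over the optimal list, 898 of the 1463 distinct nuclear intervals had a summit within 250 bp of a protein-coding gene, counted by interval and not by member. No such share is given for summits inside a protein-coding gene or for the nearest gene. For 13 members an optimal summit was as near to the member as to any other gene of any biotype, or nearer. The part of these neighbours in the entries was not tested. Genes that share an entry or a neighbourhood are not independent: the 27 members stood at 26 loci when genes within 500 bp were joined.

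The entries at snRNA genes were spread over the optimal list. The 33 intervals had a median rank of 616 among nuclear entries, against 733 over all 1463 distinct nuclear intervals. Of the 33, 2 were in the top 100, 11 in the top 500 and 18 in the upper part that holds 731 of all 1463. For comparison the intervals at snoRNA genes had a median nuclear rank of 230 and those at tRNA genes of 496.5.

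**Figure D2:**
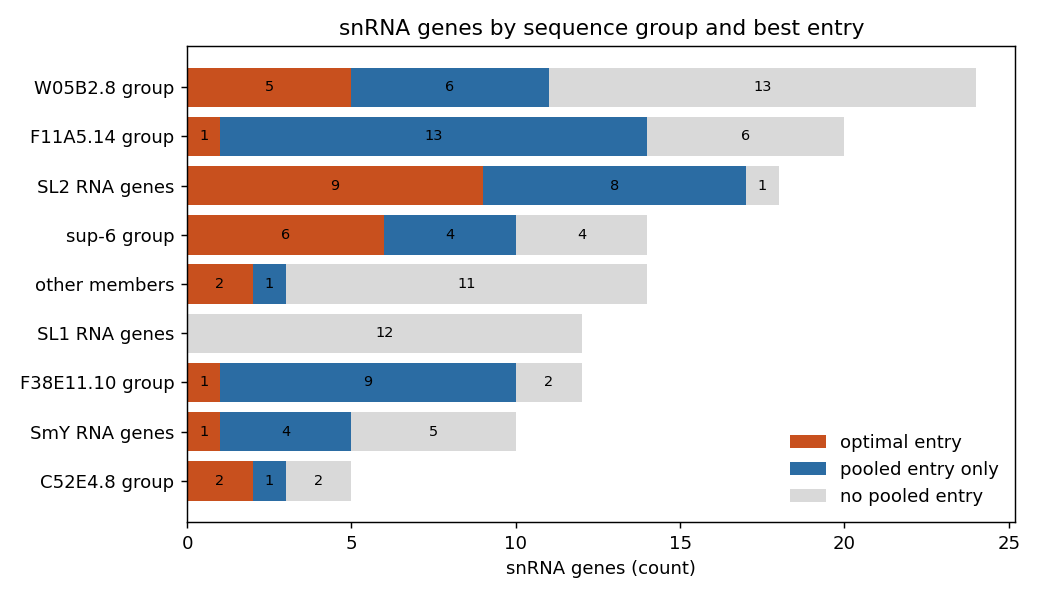
Number of snRNA genes in each family or sequence group, split by the best entry within 250 bp: in the optimal list, only in the pooled list, or in neither. SL2 RNA genes have 9 of 18 with an optimal entry and 1 with none in the pooled list, whereas all 12 SL1 RNA genes have none.

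SL2 RNA genes had the most entries. An optimal entry lay at 9 of 18 (50%, exact 95% interval 26% to 74%) and a pooled entry at 17 of 18. The highest-ranking snRNA gene of all was one of them: sls-2.4 (chromosome I, 4172206 to 4172315) had a pooled signal of 298, rank 65 of the optimal list, with rank 81 and a signal of 153 in replicate 1 and rank 40 and a signal of 149 in replicate 2. The only protein-coding gene within 250 bp of its summit was R12E2.11, 106 bp away. It ranked first among the members in each replicate.

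The next SL2 genes stood well inside both replicate lists. The entry at sls-2.9 had rank 148 and ranks 141 and 225 in replicates 1 and 2, and its summit was 15 bp from the tRNA gene M01E5.t1, so the signal of these neighbours cannot be told apart. The entry at sls-2.1 on chromosome II had rank 161, with ranks 190 and 158 in the replicates. The entry at sls-2.2, also on chromosome II, had rank 237, with ranks 139 and 147. All 3 stood in the top 250 of each replicate.

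Lower in the list, sls-2.7 had rank 444 with ranks 519 and 315 in replicates 1 and 2. The highest optimal entry at sls-2.8 ranked 637, and the highest replicate entries 543 and 577. The summit was 71 bp after the gene start in the optimal list and 215 bp after it in replicate 1. The 3 others lay on chromosome III: sls-2.16 at rank 732 (1119 and 550), sls-2.15 at 973 (1242 and 987) and sls-2.18 at 1344 (1411 and 1211). All 9 bound SL2 genes were inside the 1489 highest entries of both replicates. The summits by sls-2.16 and sls-2.18 lay inside glr-2, a glutamate receptor subunit gene. The lowest SL2 gene with a pooled entry was sls-2.12, at rank 13453, and sls-2.6 had none.

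In the W05B2.8 group 5 of 24 genes had an optimal entry (20.8%) and 11 a pooled entry. W05B2.8 itself (chromosome III, 10989679 to 10989780) was second among all members, with a pooled signal of 236 at rank 113, a signal of 146 at rank 93 in replicate 1 and a signal of 110 at rank 102 in replicate 2. F54D8.7 had a pooled signal of 168 at rank 344, but its replicates stood apart, at rank 206 in replicate 1 and rank 733 in replicate 2. Y9C9A.111 had rank 641, with 629 and 852.

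The last 2 of this group were high in 1 replicate only. R07E5.16 had rank 1294 in the optimal list, rank 1041 in replicate 1 and rank 2547 in replicate 2. C28A5.7 had rank 1361, with 1224 and 3935. Both passed the size of the optimal list in replicate 1 and not in replicate 2. All 5 bound genes of the group had TATATAA and the element with at most 1 letter differing. Among them the exact letters stood only at W05B2.8 and F54D8.7. Across the group 17 of 24 genes had such an element and 15 had TATATAA, so most genes with either had no optimal entry. K09C6.12, with the same upstream arrangement, was the highest pooled member with no optimal entry, at rank 1697. The lowest pooled ranks of the group, 25427, were those of K09B11.13 and K09B11.14, which share an entry.

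In the sup-6 group 6 of 14 genes had an optimal entry (42.9%, exact 95% interval 17.7% to 71.1%) and 10 a pooled entry. The entry at sup-6 (chromosome II, 12944803 to 12944967, minus strand) had a pooled signal of 205 at rank 177, a signal of 120 at rank 168 in replicate 1 and a signal of 85.6 at rank 248 in replicate 2. F08H9.11 had rank 472, with 495 and 616 in the replicates. The entry at sup-39 had rank 587, with 604 and 673. All 3 held their place in both replicates.

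One of the 6 is the same locus as another. The annotation also gives biotype snRNA to mir-1831, a 22 bp gene inside sup-39, which shares its entry. F08H9.10 had rank 591 and was lower in replicate 1 (1087) than in replicate 2 (222), and its higher summit was inside the small heat-shock gene hsp-16.20. T08G5.11 had rank 1233 and was outside the highest 1489 in replicate 1 (2013) but inside in replicate 2 (861). The order of the lower members of the group thus differed between the replicates. The lowest pooled entries were at T27E4.12 and T27E4.22, which share rank 23335.

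The F11A5.14 and F38E11.10 groups had mostly low entries. An optimal entry lay at 5% and 8.33% of their genes, against 4.2% of all nuclear genes and 6.14% of those other than piRNA genes. With 1 gene each, these optimal counts do not set the groups apart from all genes. A pooled entry lay at 35.5% of all nuclear genes and 46.4% of those other than piRNA genes. F11A5.14 was the only one of its 20 genes with an optimal entry, at rank 1017 (958 in replicate 1 and 1059 in replicate 2), although 14 of the 20 had a pooled entry. The next of that group was F56H6.14, at pooled rank 1762 with 3296 and 3442 in the replicates, and the last was F56H6.15 at 26673. F38E11.10, by the small heat-shock gene hsp-12.3, was the only 1 of its 12 genes with an optimal entry, at rank 966 (1035 and 1061), while 10 of the 12 had a pooled entry. The summit of its highest entry was 19 bp before the gene start in the optimal list and 161 bp after it in replicate 1. The next was F42C5.12 at pooled rank 1953 (1529 and 2553), and the last was ZK897.2 at 26323.

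Of the 5 genes of the C52E4.8 group, C52E4.8 had rank 590 (837 and 467 in replicates 1 and 2) and F10D2.13 rank 1235 (1454 and 883). T11F9.15 was the lowest with a pooled entry, at 5646. Both optimal members were inside the highest 1489 entries of each replicate.

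Of the 10 SmY genes, 1 had an optimal entry (10%, against 4.2% of all nuclear genes) and 5 a pooled entry (against 35.5%). The 1 was smy-1, at rank 1412, and its highest entry in replicate 1 had rank 849. The optimal summit was 320 bp after the gene start and 244 bp from the gene. The replicate 1 summit was 76 bp after the start, inside the gene, and the interval of that entry does not contain the optimal summit. In replicate 2 no summit lay within 250 bp of smy-1, and the nearest was 271 bp away, at rank 823. The optimal summit was 53 bp from smy-2, which the annotation lists as a snoRNA gene, so the SmY pair cannot be told apart at the optimal entry. The lowest of the 5 SmY genes with a pooled entry was smy-11 at 10232.

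Of the 14 members in no group, M163.13 on chromosome X had rank 779 (1049 and 827) and ZK1251.14 rank 1347 (1797 and 2107). M163.13 has the upstream arrangement of the W05B2.8 group. ZK1251.14 has neither the element nor TATATAA, its summit was 198 bp upstream of it and inside ins-7, an insulin-like peptide gene, and it was the only bound member outside the highest 1489 entries of both replicates. F56A12.5 was the only other with a pooled entry, at rank 21276.

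Across members the replicates ranked alike. Over the 56 members with an entry in both replicate lists, the signals had a Spearman correlation of 0.839, given as a description, since the members share libraries and some share entries. Of the 27 members with an optimal entry, 22 were among the highest 1489 entries of both replicates, 3 of replicate 1 only (R07E5.16, C28A5.7 and smy-1), 1 of replicate 2 only (T08G5.11) and 1 of neither (ZK1251.14). The optimal list was selected from these same replicates, so high ranks of its members in both are partly set by that selection. Outside the 27, H27M09.6 was high in replicate 1 (1270, against 5380) and sls-2.3 in replicate 2 (1345, against 3303).

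**Figure D3:**
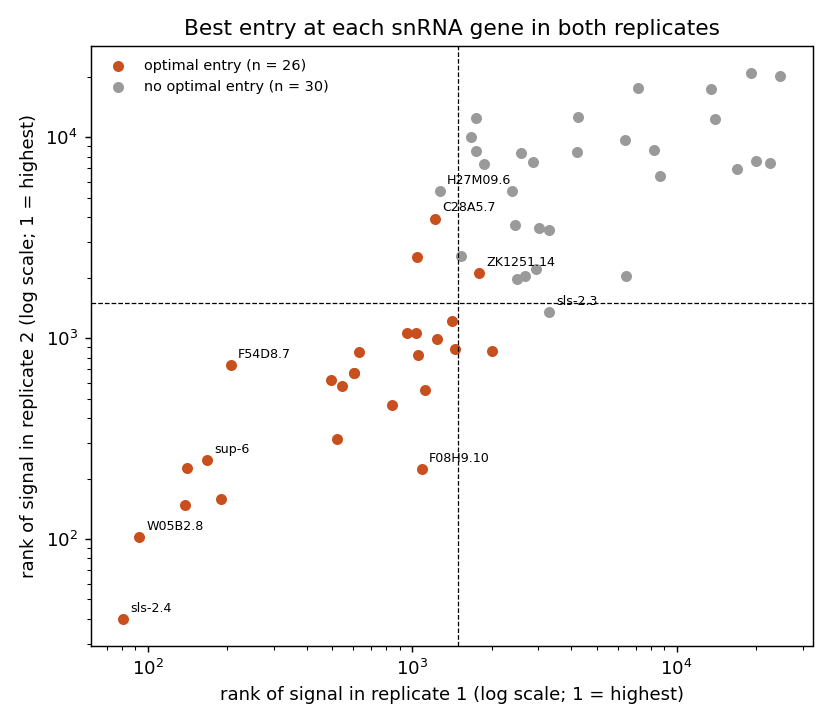
Rank of the best entry at each snRNA gene in replicate 1 (horizontal) and replicate 2 (vertical), on log axes with 1 the highest, for the 56 genes with an entry in both; dashed lines mark rank 1489. Genes with an optimal entry gather at the lower left, from sls-2.4 at 81 and 40, and C28A5.7 and F08H9.10 lie off the diagonal.

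Members in repeated sequence had no optimal or pooled entry. The share of 36-base runs that occur once in the genome was computed over each gene with 250 bp to each side. It was under 50% at 19 members, none of which had one. They were all 12 SL1 genes, at 0% to 23.3%, with 5 genes of the F11A5.14 group and 2 of the sup-6 group (T27E4.10 and T27E4.11). All 27 members with an optimal entry had 70.9% or more. No source used here gives the length of the reads or their treatment when they match several places, and the part of repeated sequence in these counts was not tested.

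**Figure D4:**
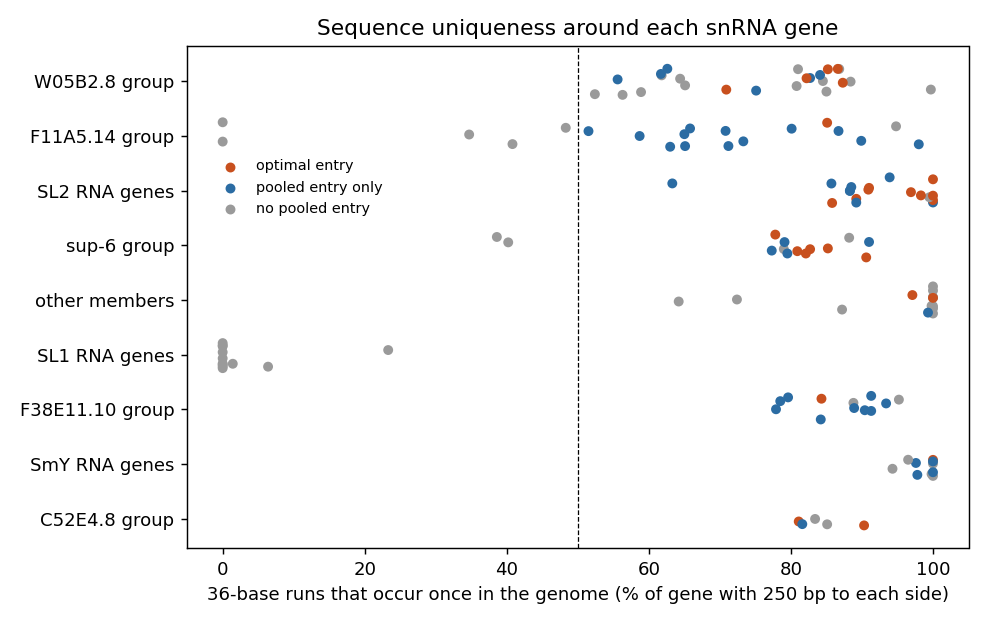
Share of 36-base runs around each snRNA gene (gene with 250 bp to each side) that occur once in the genome, in percent, by group; colours give the best entry and the dashed line marks 50%. No gene left of the line has an optimal or pooled entry, and the SL1 genes all lie at 23.3% or less.

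Members in unique sequence could also lack entries. The SmY genes had a median of 99.9% and the 14 ungrouped members of 100%, yet 5 of 10 and 11 of 14 of them had no pooled entry, while the F38E11.10 group had a median of 88.9% and 2 of 12 with none. Among the 110 members at 50% or more, 83 had the element with at most 1 letter differing, of which 24 had an optimal and 65 a pooled entry. The other 27 lacked it, and 3 of these had an optimal and 8 a pooled entry. Those 3 were sls-2.2, F38E11.10 and ZK1251.14. By the exact letters, counted over all 129 members, the split was narrower for optimal entries. Of the 55 members with the exact element 14 had an optimal and 42 a pooled entry. Of the 74 without it 13 had an optimal and 31 a pooled entry. Genes of a group share both sequence and element, so these counts are not of independent genes.

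By chromosome, an optimal entry lay at 8 of 13 members on chromosome III (all genes there 7.54%), 5 of 16 on II (5.56%), 3 of 16 on I (6.09%), 4 of 41 on IV (1.57%), 6 of 40 on V (3.67%) and 1 of 3 on X (8.87%). These shares of all genes count piRNA genes, and chromosome IV holds 19704 of the 46890 nuclear genes. Over all chromosomes the share was 4.2%, or 6.14% without piRNA genes, and the latter is not given by chromosome. The difference between chromosomes was not tested. The 40 on chromosome V include the 12 SL1 genes.

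Summits lay on both sides of the genes. Among the 34 pairs of member and optimal entry, 10 summits were upstream of the gene, by 9 to 198 bp, 8 were inside it and 16 were downstream, from 126 to 320 bp after its start. Of the 27 members, 20 had 1 optimal entry and 7 had 2. At sup-6 the summits were 3 and 211 bp after the start, at W05B2.8 13 bp before and 187 bp after, at sls-2.1 39 bp before and 162 bp after, and at F38E11.10 19 bp before and 216 bp after. At the last 3 of these the summits lay on either side of the gene, as at F08H9.10 (31 bp before and 178 bp after the start). Since 29 of the 33 intervals had the same width of 420 bp, this spacing is not read as an arrangement of binding. Its relation to the interval width was not tested. An entry 420 bp wide is longer than every member, so these lists do not place the signal on the promoter or on the gene body.

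**Figure D5:**
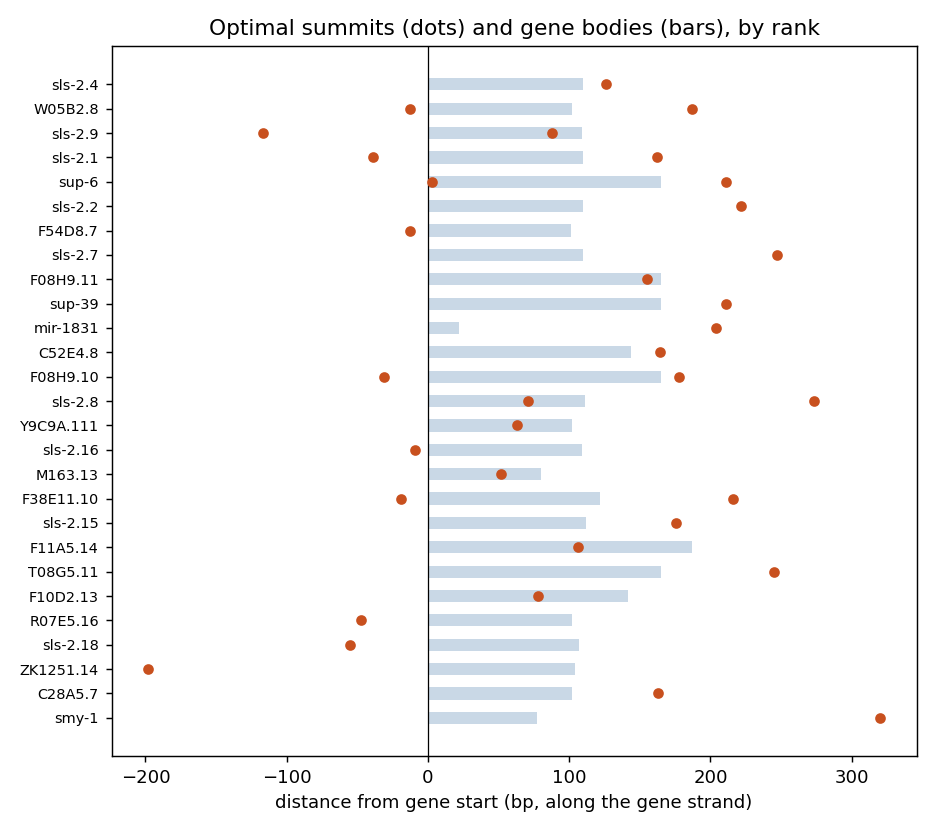
Optimal summits (dots) relative to the start of each of the 27 snRNA genes (bp along the gene strand), with the gene as a bar, in order of rank from sls-2.4 at the top. Dots lie from 198 bp before to 320 bp after the start, on both sides of the bars.

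Words known for DAF-16 and for the GATA factors of the intestine were counted at these summits. In 101 bp windows centred on the summits, read on both strands, the forkhead word TGTTTAC was in 0 of the 33 intervals, against 4.17% of all distinct nuclear intervals, and TATTTAC in 1 (at F38E11.10), against 1.23%. TGATAAG, the GATA word, was in 1 (at ZK1251.14), against 8.75%. With 33 intervals, shares this low amount to a few summits at most, so these counts do not set the members apart. TATAAA was in 4 (12.1%, at W05B2.8, sls-2.9, C52E4.8 and R07E5.16), against 6.84%. No match says only that these letters are not in this window.

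Protein genes of the same pathway were looked up in 5 lists: 59 of 69 listed names matched a protein-coding gene, and 5 of the 59 (8.47%) had an optimal summit in a promoter window that runs from 1000 bp before a transcript start to 500 bp after it, against 4.2% of all protein-coding genes. The count was 3 without replicate 1 and 8 without replicate 2, so it rests on the choice of replicate. No share of all protein-coding genes is given for the single replicate lists, so these 2 counts have no background beside them. Of the 14 Sm and LSm ring proteins, which wrap the snRNAs, 3 had one. The snr-4 entry, at rank 590, is the entry of C52E4.8, whose summit was 21 bp from the snRNA gene with no protein-coding gene within 250 bp. The snr-1 entry had rank 1041 and rank 477 in replicate 1, with no entry in the window in replicate 2, and the lsm-3 entry rank 1376 (1286 and 1119).

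None of the 9 matched genes of U1 and U2 particle proteins and of U2AF, and none of the 11 of U4, U5 and U6 particle proteins, had an optimal entry, a count that a share of 4.2% would also give. In the pooled list 7 of the 9 and 8 of the 11 had a summit in the window, against 45.6% of all protein-coding genes. That difference was not tested. Of 19 matched genes of snRNA transcription and 3′ end formation, which include SNAPc and Integrator subunits, 1 had an optimal entry: ints-4, an Integrator subunit, at rank 549 (665 and 660). Of 6 for cap binding, export and assembly, prmt-5, a methyltransferase that modifies Sm proteins, had rank 1102 (595 and 2282). Among the 5 bound genes snr-4 was the only one with a small RNA gene (transfer, small nuclear, small nucleolar, ribosomal or micro RNA) within 250 bp of the summit.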

How the data were processed

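The authors deposited narrowPeak lists of ChIP-seq entries per replicate, on the pooled replicates and as an optimal set, per the file listings that accompany the samples. The signal per entry is the authors' deposited value, and no source used here gives its scale, the peak caller or the aligner. The ce11 lists were used, and the ce10 lists were not. Entries were ranked by signal within each list. Genes came from Ensembl release 115 and gene symbols and sequence from RefSeq, matched by WormBase ID for all 129 members. Groups joined genes, in chains, that shared at least 25% of 8-base words of the shorter gene. Analysis used Python 3.11.15, numpy 2.4.6, pandas 2.3.3 and scipy 1.17.1. The code that links summits to genes was checked on planted positions. No statistical test was made, since there was 1 group. Named genes were all members with an optimal entry, the 3 highest without one, the highest and lowest of each group, members high in 1 replicate only, and the bound pathway genes. Membership follows from biotype alone, but this gene class, the lists, the groups and the upstream element were chosen with earlier results of these data known.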

Additional observations from a re-analysis of the deposited data

How the results depend on the processing

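The count of 27 snRNA genes with an optimal entry became 8 when the summit had to lie inside the gene, 16 with the 744 highest optimal entries, 73 with the whole pooled list and 13 where the member had to be the nearest gene of any biotype, ties included. Over all nuclear genes, 2.13% had a summit inside and 2.34% one of those 744 entries. At 100, 500 and 1000 bp, 3.2%, 5.15% and 6.5% of all nuclear genes had a summit. No such share is given for the nearest-gene rule or for interval overlap. The count of members ranged from 24 to 26 with 1 replicate left out and from 22 to 31 for distances of 100 to 1000 bp. It was 25 by interval overlap, and 25 among the 115 members with no tRNA, snoRNA or ribosomal RNA gene within 500 bp. It was 26 at 120 loci. Chosen after the data were seen, 27 of the 110 members with windows at least 50% unique, and 24 of the 126 without mir-1831, ZK1251.14 and smy-1, had an optimal entry. Both counts follow from which members were left out, so they do not show how steady the count is. The median nuclear rank of 616 ranged from 604 to 636 with 1 replicate left out and stayed at 616 under the other alternatives run. The 5 pathway genes became 2 with those 744 entries, 4 and 7 with 500 and 2000 bp upstream, and 3 to 8 with 1 replicate left out. No share of all protein-coding genes at these settings is given. With the summit within 100 bp an optimal entry lay at 7 SL2 genes, 5 genes of the sup-6 group, 1 ungrouped member and 0 SmY genes, and the counts of the other groups did not move. No paired analysis was possible because there was 1 group. The lists hold no read counts, so depth and its limits are unknown.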
